A study of Mus musculus with 12 samples.

Results

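The 5 genes described here are *Gpnmb*, which encodes a transmembrane glycoprotein of lysosomes and the cell surface, and the 4 members of the MiT/TFE family of transcription factors, *Mitf*, *Tfeb*, *Tfe3* and *Tfec*. They were taken by symbol from the 55487 genes of a count table, and all 5 had enough reads to be tested among 16908 genes. They had been picked with the difference between ARG1+ and ARG1- microglia in view, so their values in that comparison are given as a description, and the only thing printed of their tests is how many passed. The table holds RNA-seq counts of 12 libraries of microglia sorted at postnatal day 13 from the brain (BF/striatum) of YARG mice, in which YFP is inserted after the stop codon of the *Arg1* gene and reports its activity. Each library pooled same-sex pups, and every population was sorted as CX3CR1-positive and CD206-negative cells. Both populations came from 3 litters per sex, so ARG1+ and ARG1- libraries may share pups. The labels do not say which, and the 12 libraries were fitted as separate samples. There were 3 libraries each of YFP-positive (ARG1+) females and males and of YFP-negative (ARG1-) females and males, all of 1 strain and with no treatment named. Library totals ran from 28356659 to 60625170 counts. A floor of 3 counts, which covers counting error only, was worth 0.0511 to 0.102 CPM. CPM is the unit of level used here. It is a gene's counts divided by the library's summed count of the tested genes times its TMM scaling factor.

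The MiT/TFE factors share a basic helix-loop-helix leucine zipper, bind DNA as homodimers or as heterodimers with one another, and switch on genes of lysosomes and autophagy. Their entry into the nucleus is held back by phosphorylation at the lysosome surface, through mTORC1, the Rag GTPases and folliculin, and by 14-3-3 proteins in the cytoplasm, so transcript level is only one layer of their control. *Gpnmb* is known from melanocytes, osteoclasts and macrophages, is a known target of MITF and TFE3, and marks microglia laden with lipid or lying along developing axon tracts.

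*Gpnmb* (ENSMUSG00000029816) lies on chromosome 6 of GRCm38, from 49036546 to 49070929 on the forward strand. *Mitf* (ENSMUSG00000035158), from 97807052 to 98021349 on the forward strand, and *Tfec* (ENSMUSG00000029553), from 16833373 to 16898441 on the reverse strand, are on the same chromosome. *Tfeb* (ENSMUSG00000023990) is on chromosome 17 from 47737030 to 47792419, and *Tfe3* (ENSMUSG00000000134) is on the X chromosome from 7762560 to 7775202, both on the forward strand. All are protein-coding. No other annotated gene shares an exon base with any of them.

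MiT/TFE factors bind the E-box CACGTG, its extended form TCACGTGA at the core of the CLEAR element of lysosomal genes, and the M-box TCATGTGA, a form of the E-box CATGTG. The window from 250 bases before to 50 bases after each RefSeq transcription start (GRCm38.p6) was searched on both strands for these 4 motifs. CACGTG lies inside TCACGTGA, and CATGTG inside TCATGTGA. None of the 10 windows of the members (1 of *Gpnmb*, 3 of *Mitf*, 3 of *Tfeb*, 2 of *Tfe3* and 1 of *Tfec*) held any of them, against 7.15% of 32851 windows of all genes for CACGTG, 0.974% for TCACGTGA, 14.2% for CATGTG and 0.986% for TCATGTGA. These letters are therefore not in those windows, which says nothing of sites elsewhere. The 250 bases before the start of *Gpnmb*, chr6:49036268-49036517 on the forward strand, are shown because this is the nearest upstream sequence of the gene with the widest gap between the populations; it has no capitals, since no motif was found.
Gpnmb upstream: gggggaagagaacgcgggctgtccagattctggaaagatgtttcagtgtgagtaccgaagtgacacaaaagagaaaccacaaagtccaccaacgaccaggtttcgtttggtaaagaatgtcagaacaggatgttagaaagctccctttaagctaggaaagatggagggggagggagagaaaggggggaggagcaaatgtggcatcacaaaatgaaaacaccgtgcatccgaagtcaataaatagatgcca

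Lysosomal genes with TCACGTGA in the window are shown for contrast, each as 30 bases on the gene's strand with the motif in capitals. They were chosen to cover genes that were higher, lower or not called in ARG1+ microglia, as described further on: *Mcoln1* (a lysosomal calcium channel), *Clcn7* (a lysosomal chloride-proton exchanger) and *Atp6v1a* (a subunit of the lysosomal proton pump) were higher, *Atp6v0d1* and *Atp6v0e* (also pump subunits) were lower, and *Ctsd* (the protease cathepsin D) passed no test. *Lamtor1*, a scaffold that holds the Rag GTPases at the lysosome and was lower, is shown for the M-box. Their positions are chr8:3500462-3500491 (*Mcoln1*, forward), chr17:25133386-25133415 (*Clcn7*, forward), chr16:44139373-44139402 (*Atp6v1a*, reverse), chr8:105566050-105566079 (*Atp6v0d1*, reverse), chr17:26676387-26676416 (*Atp6v0e*, forward), chr7:142387908-142387937 (*Ctsd*, reverse) and chr7:101905728-101905757 (*Lamtor1*, forward).
Mcoln1: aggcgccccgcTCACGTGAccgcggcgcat
Clcn7: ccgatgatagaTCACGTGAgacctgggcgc
Atp6v1a: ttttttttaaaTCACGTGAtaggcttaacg
Atp6v0d1: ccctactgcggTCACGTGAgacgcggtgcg
Atp6v0e: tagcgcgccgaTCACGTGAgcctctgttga
Ctsd: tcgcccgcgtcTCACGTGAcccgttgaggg
Lamtor1: ggacaacaaaaTCATGTGActcgccccgcc
The same 8 letters thus stand before or at the start of genes that moved in both directions.

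The labels rest on the YFP sort. *Arg1* itself, the gene that names the populations, was above 0 in 2 of 6 ARG1+ libraries, at up to 1.48 CPM, and at 0 in all 6 ARG1- libraries, so its transcript does not check the ARG1+ label in the other 4 libraries, and the population names follow the sort. The study also reports RT-qPCR on sorted cells, with *Arg1* restricted to the YFP-positive population. By its immunostaining, ARG1 and YFP protein occurred together in cells of YARG mice. The 7 microglial markers (*P2ry12*, *Tmem119*, *Fcrls*, *Gpr34*, *Siglech*, *Olfml3* and *Sall1*) summed to 19358 to 23144 CPM in ARG1+ and 28985 to 35259 CPM in ARG1- libraries. Of the 7, 6 were lower in ARG1+ microglia, or 85.7% beside 9.42% of all genes. *Sall1* was higher, with a log2 fold change of 0.43 ± 0.11 (SE), or 14.3% beside 6.44%. Of the 5 genes known for transcripts that keep introns (*Rsrp1*, *Ccnl1*, *Ccnl2*, *Clk1* and *Clk4*), 3 were higher in ARG1+ microglia, or 60% beside 6.44% of all genes. The sum of all 5 was 2840 to 4169 CPM there against 1104 to 1967 CPM in ARG1- libraries. What part this has in the differences below was not tested. In sorted pools, more cells with a transcript and more transcript in each cell cannot be told apart.

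*Gpnmb* was the member that set the populations apart most clearly. In ARG1+ females it stood at 51.6 (replicate 7), 23.8 (replicate 8) and 23.8 CPM (replicate 15), and in ARG1+ males at 15.8 (replicate 11), 25.5 (replicate 12) and 24.3 CPM (replicate 16). In ARG1- females it stood at 2.34 (replicate 1), 0 (replicate 2) and 3.49 CPM (replicate 13), and in ARG1- males at 0 (replicate 5), 0 (replicate 6) and 5.04 CPM (replicate 14). The populations did not overlap, and 3 of the 6 ARG1- libraries held no read of the gene. By counting error alone, a value of 0 allows up to 3 counts, which is at most 0.102 CPM in any of these libraries. The ARG1- libraries with reads had 78, 205 and 170 counts (replicates 1, 13 and 14), with none between these and 0. The level below which a library reads 0 may thus be higher, and it was not measured. The mean was 27.5 ± 12.3 CPM (SD, n = 6) in ARG1+ and 1.81 ± 2.16 CPM (SD, n = 6) in ARG1- microglia, and the fitted log2 fold change was 3.89 ± 1.13 (SE). This fold rests on few ARG1- reads: without ARG1- male replicate 14 it was 5.39, and over all libraries left out in turn it ran from 3.61 to 5.39.

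*Mitf*, the family member that gives the group its name and is known from melanocytes and osteoclasts, was also higher in ARG1+ microglia. ARG1+ females had 17.5, 10.9 and 9.86 CPM (replicates 7, 8 and 15) and ARG1+ males 5.34, 13.7 and 13.5 CPM (replicates 11, 12 and 16). ARG1- females had 2.73, 2.92 and 2.33 CPM (replicates 1, 2 and 13) and ARG1- males 4.42, 1.14 and 6.28 CPM (replicates 5, 6 and 14). The populations overlapped by 1 pair of libraries, ARG1+ male replicate 11 lying below ARG1- male replicate 14. The log2 fold change was 1.86 ± 0.41 (SE), with means of 11.8 ± 4.13 and 3.3 ± 1.8 CPM (SD, n = 6 each).

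*Tfe3*, which acts with *Tfeb* as a sensor of nutrient and lysosome state, was the most abundant factor and differed by little. ARG1+ libraries ran from 182 through a median of 219 to 257 CPM, and ARG1- libraries from 139 through 163 to 209 CPM. Of the 6 ARG1+ libraries, 4 lay above every ARG1- library. The log2 fold change was 0.40 ± 0.12 (SE), with means of 221 ± 28.3 and 167 ± 22.7 CPM (SD, n = 6 each).

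The populations overlapped over most of their range in *Tfeb*, a central activator of lysosome and autophagy genes, and in *Tfec*, a family member found mainly in myeloid cells. *Tfeb* ran from 28.3 through 54 to 71.5 CPM in ARG1+ and from 31.7 through 46.1 to 73.6 CPM in ARG1- microglia, a log2 fold change of 0.17 ± 0.25 (SE). *Tfec* ran from 12.7 through 16.1 to 19 CPM in ARG1+ and from 2.84 through 10.4 to 26.8 CPM in ARG1- microglia, a log2 fold change of 0.30 ± 0.47 (SE). The *Tfec* value moved from 0.10 without ARG1- male replicate 6 to 0.75 without ARG1- male replicate 14. In all, 3 of the 5 members (*Gpnmb*, *Mitf* and *Tfe3*) were under an adjusted p of 0.05 in edgeR's quasi-likelihood fit, beside 15.9% of all 16908 genes, and 1 of 5 (*Gpnmb*) did not overlap, beside 10% of all genes (3.48% with ARG1+ above and 6.56% with ARG1+ below). These counts follow from how the members were picked, and nothing is read from them.

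**Figure D1:**
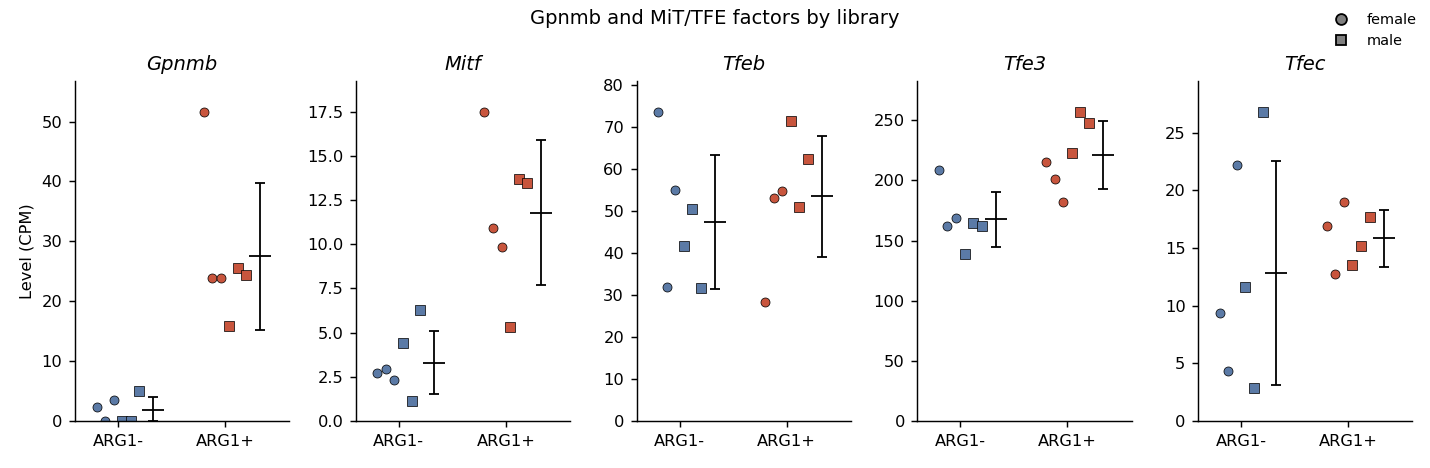
Level (CPM, linear axes from 0, a separate scale for each gene) of the 5 genes in 6 ARG1- and 6 ARG1+ libraries; circles are females, squares males, and the bars beside them the mean with 1 SD, cut at 0. The ARG1+ and ARG1- libraries are apart for *Gpnmb*, overlap by 1 pair of libraries for *Mitf*, and *Tfec* spreads more widely in ARG1- (2.84 to 26.8 CPM) than in ARG1+ libraries (12.7 to 19 CPM).

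The members also differed in how far the libraries of one population lay from each other. *Tfec* had an SD of 1.27 log2 CPM over the ARG1- libraries and 0.23 over the ARG1+ libraries. The median SD of genes whose mean level was within 1.5 times that of *Tfec* was 0.55 in ARG1- and 0.34 in ARG1+ microglia. Its ARG1- values were 9.34, 4.29 and 22.2 CPM in females (replicates 1, 2 and 13) and 11.6, 2.84 and 26.8 CPM in males (replicates 5, 6 and 14). The 2 ARG1- libraries of highest *Tfec*, replicates 13 and 14, thus lay above every ARG1+ library and the other 4 below. These 2 carry the highest replicate numbers among ARG1- libraries, and 1 alternative fit gave the highest-numbered libraries a term of their own. In ARG1+ microglia too *Tfec* was highest in the highest-numbered library of each sex, by a smaller margin. It had 19 CPM in female replicate 15 against 16.9 and 12.7 CPM, and 17.7 CPM in male replicate 16 against 13.5 and 15.2 CPM. *Gpnmb* was also highest in replicates 13 and 14 among ARG1- libraries, at 3.49 and 5.04 CPM against 0 to 2.34 CPM. *Mitf*, *Tfeb* and *Tfe3* were not highest in both. What replicates 13 and 14 share was not tested. The 8 melanocyte markers, with *Tyr*, *Tyrp1* and *Slc45a2* at 0 in all 12 libraries, summed to 5.88 and 6.49 CPM in these 2 libraries and to between 0.2 and 3.04 CPM in the other libraries. In the 2 libraries the sum was all *Pmel*, a melanosome protein related to GPNMB, and its part in the *Tfec* values was not tested. *Tfeb* had an SD of 0.46 in ARG1+ and 0.47 in ARG1- libraries, beside medians of 0.25 and 0.34 for genes of like level. *Tfe3* was the steadiest member, at 0.19 in both. *Gpnmb* had the widest spread in ARG1- libraries, 3 of which were at 0, with an SD of 3.33 beside a like-level median of 1.4. In ARG1+ libraries its SD was 0.55 beside 0.3. The SD of *Mitf* was 0.82 in ARG1- and 0.59 in ARG1+ libraries, beside medians of 0.95 and 0.38.

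Levels of different genes were compared per kb of annotated exon, so that a long transcript does not count for more. In ARG1+ microglia the order was *Tfe3* (23.9 ± 3.06 CPM per kb, SD, n = 6), *Tfeb* (9.44 ± 2.55), *Gpnmb* (4.22 ± 1.89), *Tfec* (2.83 ± 0.441) and *Mitf* (1.91 ± 0.667). The ranges of *Tfe3* and *Tfeb* did not overlap; those of the other neighbours did, although *Gpnmb* stood above *Tfec* in all 6 ARG1+ libraries and below *Tfeb* in 5 of 6. In ARG1- microglia the order was *Tfe3* (18.1 ± 2.46 CPM per kb), *Tfeb* (8.36 ± 2.82), *Tfec* (2.29 ± 1.73), *Mitf* (0.533 ± 0.291) and *Gpnmb* (0.278 ± 0.332), where the ranges of *Tfe3*, *Tfeb* and *Tfec* did not overlap and those of *Tfec*, *Mitf* and *Gpnmb* did. *Gpnmb* thus stood last in ARG1- and in the middle of the order in ARG1+ microglia.

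The 4 factors together summed to 38.1 ± 4.03 CPM per kb in ARG1+ and 29.3 ± 4.97 CPM per kb in ARG1- microglia (SD, n = 6 each). *Tfe3* made up 62.7% ± 4.04 of this sum in ARG1+ and 62.2% ± 5.44 in ARG1- libraries, and *Tfeb* 24.7% ± 5.91 and 28.1% ± 5.78. *Mitf* held 5.08% ± 1.95 in ARG1+ and 1.88% ± 1.1 in ARG1- libraries, so it stayed a small share of family transcripts where it was highest. The share of *Tfec* was 7.51% ± 1.54 and 7.76% ± 5.75. All these shares depend on the length used, which their SDs do not cover. By the longest transcript, *Tfe3* and *Tfeb* stood at 35 and 22.9 CPM per kb in ARG1+ microglia. By the union of exons they stood at 23.9 and 9.44 CPM per kb.

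**Figure D2:**
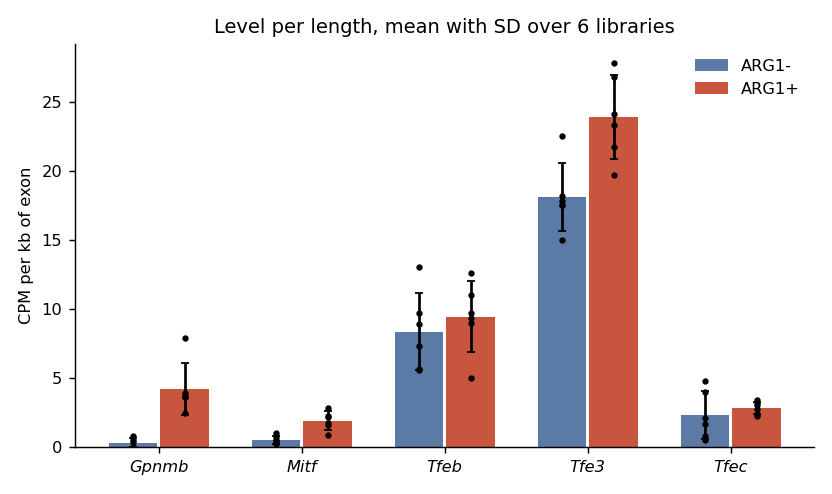
Level per length (CPM per kb of annotated exon, linear axis from 0) of the 5 genes in ARG1- and ARG1+ microglia; bars are means over 6 libraries, error bars 1 SD cut at 0, and points single libraries. *Tfe3* is the highest in both populations (18.1 and 23.9 CPM per kb), and *Gpnmb* goes from the lowest level (0.278) to the middle of the order (4.22).

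Sex was not used in picking the members, so it could be tested, with edgeR's quasi-likelihood test adjusted over all 16908 genes. None of the 5 members passed in ARG1- microglia (0.0946% of all genes did) or in ARG1+ microglia (0.0355%), and no gene at all passed for a difference of the ARG1 effect between the sexes, where DESeq2 called 284 genes, none of them a member. At an unadjusted p under 0.05 the shares of all genes were 10%, 3.12% and 9.32%, and of the members only *Tfe3* was under it, in the difference between the sexes. *Tfe3*, the X-linked member, came nearest. Its ARG1+ females had 215, 201 and 182 CPM and its ARG1+ males 223, 257 and 248 CPM (replicates 7, 8 and 15, and 11, 12 and 16), so every male library was above every female library. Its ARG1- females had 209, 162 and 169 CPM and its ARG1- males 139, 165 and 162 CPM, which overlapped. The log2 fold change of ARG1+ over ARG1- was 0.15 ± 0.13 (SE) in females and 0.65 ± 0.13 in males, a difference of -0.50 ± 0.19 (edgeR, adjusted p = 0.491, and 0.278 to 0.716 over the alternative fits).

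For *Tfeb* the 2 sexes lay on opposite sides of 0, with log2 fold changes of -0.24 ± 0.33 (SE) in females and 0.58 ± 0.33 in males, and a difference of -0.81 ± 0.46 (edgeR, adjusted p = 0.636). *Mitf* had 2.26 ± 0.58 in females and 1.46 ± 0.57 in males, a difference whose span of 2 SE reached from -0.78 to 2.39. *Gpnmb* had 4.08 ± 1.67 and 3.70 ± 1.65, and the same span from -3.86 to 4.61, and *Tfec* had 0.44 ± 0.69 and 0.17 ± 0.69, with a span from -1.67 to 2.21. With 3 libraries per sex and population these spans leave room for large differences, and a p over the limit does not show that the sexes were alike.

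**Figure D3:**
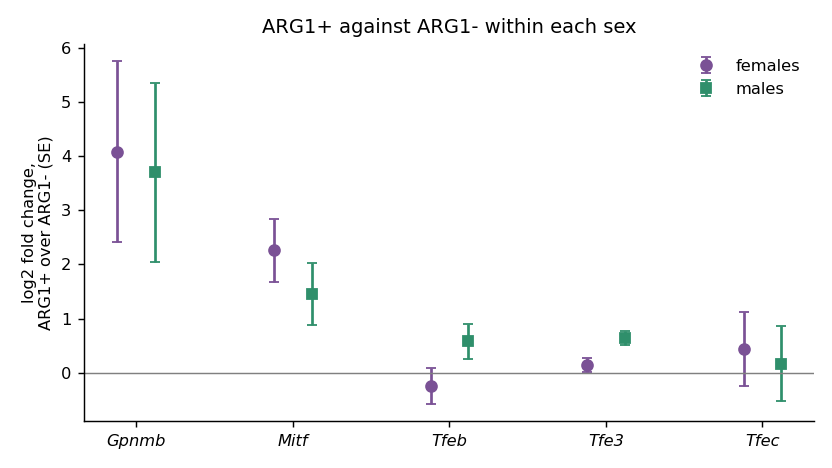
Log2 fold change of ARG1+ over ARG1- microglia (vertical axis; 0 is no difference) for the 5 genes, in females (circles) and males (squares), with 1 SE, from 3 libraries per sex and population. *Gpnmb* and *Mitf* lie above 0 in both sexes, and *Tfe3* is at 0.15 in females and 0.65 in males, a difference that did not pass the test.

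Genes that govern the entry of the factors into the nucleus moved in both directions. Some hold the factors out, and others, such as *Mcoln1* and the calcineurin subunits, promote their entry. Of 31 such genes, 30 could be tested, 4 were higher in ARG1+ microglia and 9 lower, or 13.3% and 30%, beside 6.44% higher and 9.42% lower of all genes, with a median log2 fold change of 0.02 beside 0.06 for all genes. The higher ones were *Flcn* (log2 fold change 0.61 ± 0.16 SE, adjusted p = 0.0235), which encodes folliculin, its partner *Fnip2* (1.15 ± 0.24, adjusted p = 0.00691), *Gsk3b* (0.77 ± 0.17, adjusted p = 0.00915), a kinase that phosphorylates the factors, and *Mcoln1*. *Fnip2* ran from 18.1 to 50 CPM in ARG1+ and from 10.3 to 23.3 CPM in ARG1- libraries. Lower were 4 of the 5 Ragulator subunits, the scaffold of the Rag GTPases: *Lamtor1* (-0.56 ± 0.11, adjusted p = 0.00594), *Lamtor2*, *Lamtor4* and *Lamtor5*, with *Lamtor3* at -0.33 ± 0.22 not passing. *Rraga*, a Rag GTPase, was lower at -0.69 ± 0.17, whereas the values of *Rragc* (0.20 ± 0.16) and *Rragd* (1.83 ± 0.97) did not pass. Of the 6 genes of 14-3-3 proteins listed, 4 were lower: *Ywhae* (-0.52 ± 0.09, adjusted p = 0.00336), *Ywhaq* (-0.54 ± 0.11, adjusted p = 0.0067), *Ywhab* and *Ywhah*. *Lamtor1* ran from 70 to 114 CPM in ARG1+ and from 129 to 137 CPM in ARG1- libraries, without overlap. *Mtor* itself, the kinase of mTORC1, was at 0.60 ± 0.35 and did not pass. Under 20 alternative fits *Lamtor2* passed in 9, *Lamtor4* in 16, *Mcoln1* in 16, *Flcn* in 18 and *Rraga* in 19, and the others called here in all.

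Among lysosomal genes of the CLEAR network, all 35 listed were tested, 9 were higher (25.7%, beside 6.44% of all genes) and 3 lower (8.57%, beside 9.42%), with a median of 0.10 beside 0.06. Higher were *Gaa* (0.92 ± 0.16, adjusted p = 0.00314), the glycogen-degrading acid glucosidase, the proteases *Ctsb* (0.44 ± 0.09, adjusted p = 0.00601) and *Tpp1* (0.44 ± 0.10, adjusted p = 0.011), and *Ctsa*, *Glb1*, *Clcn7*, *Mcoln1*, *Atp6v1a* and *Atp6v0d2*. *Gaa* ran from 202 to 364 CPM in ARG1+ and from 123 to 193 CPM in ARG1- libraries. All 3 lower genes encode subunits of the membrane sector of the proton pump: *Atp6v0e* (-0.73 ± 0.11, adjusted p = 0.0015), *Atp6v0d1* (-0.60 ± 0.14, adjusted p = 0.0111) and *Atp6v0b* (-0.40 ± 0.10, adjusted p = 0.0187). *Atp6v0d1* and *Atp6v0d2*, alternative forms of 1 pump subunit, went in opposite directions, but *Atp6v0d2* was sparse, at 1.39 to 5.78 CPM in ARG1+ and 0 to 1.14 CPM in ARG1- libraries. *Atp6v0d2* was kept for testing through its ARG1+ libraries, so its call is a description only. Other abundant lysosomal genes had values near 0: *Ctsd* stood at 0.06 ± 0.10 and *Lamp1*, a lysosomal membrane protein, at 0.11 ± 0.09, and neither passed. *Ctsa* passed in 13 and *Atp6v0b* in 15 of 20 alternative fits.

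Of the 27 genes of this list with a promoter window, 10 held TCACGTGA, among them those shown above. Since the list was drawn from genes known for this element, that number is no finding. Of the 10, 4 were higher and 2 lower, and of the 17 without it, 3 were higher and 1 lower. Across all genes tested, those with TCACGTGA in the window numbered 226, of which 10.6% were higher and 11.5% lower, with a median of 0.03. Those with TCATGTGA numbered 105, of which 10.5% were higher and 11.4% lower, with a median of 0.05. The 1242 genes with CACGTG had 7.73% higher and 10.8% lower, and the 1165 with CATGTG had 7.04% and 10.3%. All 10693 genes tested that had a window gave 6.76% higher and 11% lower, with a median of 0.03. The medians of genes with a motif thus lay within a few hundredths, on the log2 scale, of that of all genes with a window. The shares higher with TCACGTGA (10.6%) and TCATGTGA (10.5%) lay above the 6.76% of all genes with a window. This gap was not tested.

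Autophagy and membrane traffic genes gave 1 higher and 3 lower of 16 tested, or 6.25% and 18.8% beside 6.44% and 9.42% of all genes. *Hif1a*, a transcription factor of the response to low oxygen, was higher (0.60 ± 0.15, adjusted p = 0.0181). *Gabarap* (-0.76 ± 0.14, adjusted p = 0.00383) and *Map1lc3b* (-0.35 ± 0.11, adjusted p = 0.0408), whose proteins coat the autophagosome membrane, and *Vps35* (-0.41 ± 0.10, adjusted p = 0.0207), of the retromer sorting complex, were lower. *Map1lc3b* passed in 5 and *Vps35* in 15 of 20 alternative fits. *Sqstm1*, an autophagy receptor, was at -0.26 ± 0.13 and did not pass.

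**Figure D4:**
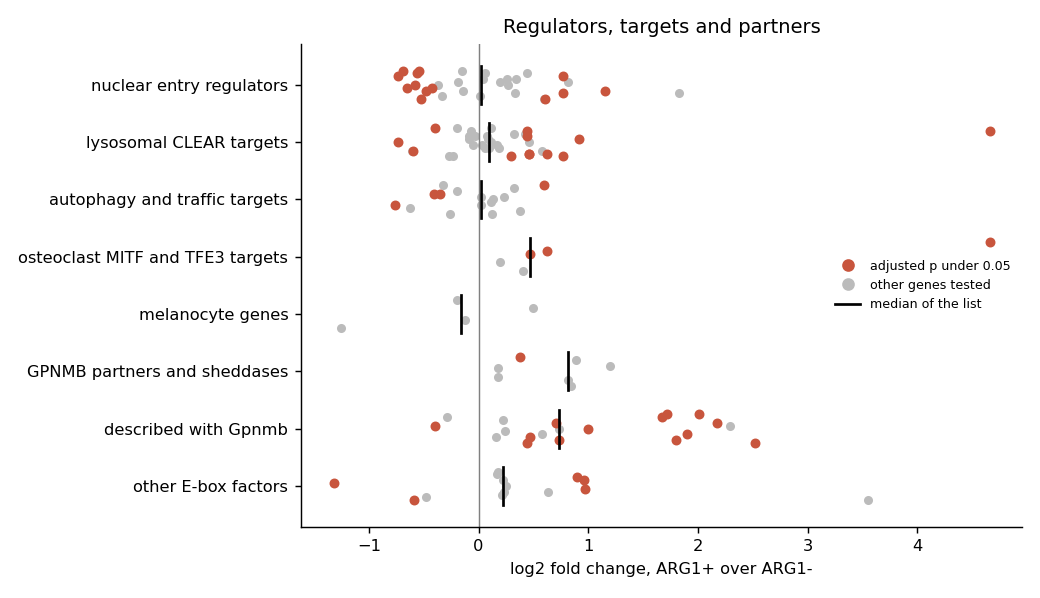
Log2 fold change of ARG1+ over ARG1- microglia (horizontal axis) for every tested gene of 8 lists of regulators, targets and partners (rows); red points have an adjusted p under 0.05, grey points do not, and black bars are list medians. Genes of nuclear entry and of the lysosome fall on both sides of 0 (medians 0.02 and 0.10), and the genes described with *Gpnmb* lie mostly to the right (median 0.73).

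The melanocyte program of MITF was largely undetected. Of 14 melanocyte genes only 4 could be tested and none passed, beside 15.9% of all genes. *Tyr*, *Tyrp1*, *Slc45a2*, *Gpr143* and *Rab38* were at 0 in all libraries. *Rab27a* (-0.12 ± 0.17) and *Mlph* (-0.20 ± 0.21), which carry melanosomes and other organelles, had the highest levels. Of 8 osteoclast targets of MITF and TFE3, 5 could be tested and 3 were higher, or 60% beside 6.44% of all genes: *Clcn7* (0.62 ± 0.16, adjusted p = 0.0196), *Nfatc1* (0.47 ± 0.14, adjusted p = 0.0428), the master regulator of osteoclast formation, and *Atp6v0d2* (4.66 ± 1.45, adjusted p = 0.0463). *Clcn7* and *Atp6v0d2* are also counted among the lysosomal genes above, so these lists are not separate. Likewise *Mcoln1* is counted under nuclear entry and the lysosome. *Ctsb* is counted among the lysosomal genes and those described with *Gpnmb* below. *Nfatc1* passed in 11 of 20 alternative fits and *Atp6v0d2* in 6 of 19. Among ARG1- libraries *Atp6v0d2* had reads only in female replicates 1 (1.14 CPM) and 13 (0.597 CPM). It was thus kept for testing through its ARG1+ libraries, and its call in this count and the lysosomal count is no independent support. The fold of *Atp6v0d2* rests on few ARG1- reads: it ran from 4.02 (without ARG1- male replicate 5) to 5.55 (without ARG1+ female replicate 8) and was 3.21 without sex in the model. *Dcstamp*, needed for osteoclast fusion, was at 0 in all libraries, and *Acp5* (0.41 ± 0.94) did not pass.

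Of 8 genes listed whose proteins are reported to bind or cut GPNMB, 7 could be tested, and 1 was higher and none lower, or 14.3% and 0% beside 6.44% and 9.42% of all genes, with a median of 0.82. *Adam17*, a protease that sheds cell-surface proteins, was higher (0.38 ± 0.12, adjusted p = 0.043) and passed in 9 of 20 alternative fits, and *Adam10* was at 0.18 ± 0.12. *Sdc4*, a proteoglycan that binds GPNMB on T cells, was at 1.20 ± 0.38 (adjusted p = 0.0522), and *Cd44*, another reported receptor, at 0.84 ± 0.55 (adjusted p = 0.351).

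Of the 20 genes described with *Gpnmb* in lipid-laden and axon tract microglia, 12 were higher and 1 lower in ARG1+ microglia, or 60% and 5% beside 6.44% and 9.42% of all genes, with a median of 0.73 beside 0.06. Several of these genes were picked by the study on these libraries, so the count is no independent evidence. Among those higher were *Plin2* (0.71 ± 0.09), a coat protein of lipid droplets, *Abca1* (1.0 ± 0.16) and *Abcg1* (0.73 ± 0.23), cholesterol exporters, and *Lipa* (0.47 ± 0.12), the lysosomal acid lipase, with adjusted p of 0.000676, 0.00179, 0.048 and 0.0191. *Trem2*, a lipid receptor, was the only lower one (-0.40 ± 0.09, adjusted p = 0.0109). *Abcg1* passed in 8 of 20 alternative fits, and the other genes of the list that were called passed in all. *Npc2*, the lysosomal cholesterol carrier (-0.29 ± 0.10, adjusted p = 0.0648), *Itgax* (2.29 ± 0.89, adjusted p = 0.104) and *Fabp5* (0.73 ± 0.27, adjusted p = 0.0936) did not pass. Neither did *Cst7* (0.16 ± 0.27), *Cd63* (0.22 ± 0.12), *Cd9* (0.24 ± 0.13) and *Lgals1* (0.58 ± 0.33), which lay further from the limit.

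Other factors that bind E-boxes or repress the same genes gave 3 higher and 2 lower of 14 tested, or 21.4% and 14.3% beside 6.44% and 9.42% of all genes, with a median of 0.23. The glucose-responsive factors *Mlxipl* (0.97 ± 0.19, adjusted p = 0.00544) and *Mlxip* (0.90 ± 0.21, adjusted p = 0.0121) were higher, as was *Bhlhe41* (0.96 ± 0.26, adjusted p = 0.0271), a repressor that binds E-boxes, though in 14 of 20 alternative fits. *Max* (-1.32 ± 0.23, adjusted p = 0.00317), the partner of MYC, and *Usf1* (-0.59 ± 0.12, adjusted p = 0.00774) were lower. *Zkscan3*, a repressor of autophagy genes, was at 0.23 ± 0.16 and did not pass.

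Profiles over the 12 libraries were compared after each gene's log2 CPM was scaled to mean 0 and SD 1, by the root mean square difference, among 10361 genes with a mean of at least 5 CPM. A difference of 0 means the same profile. Closest to *Gpnmb* were *Adamts1* (0.315), a secreted protease, *Dpp7* (0.357), a lysosomal peptidase, *Hmox1* (0.362), which degrades heme, and the annotated transcripts *Gm45606* (0.369) and *Gm45203* (0.384), of which the first is antisense to another gene, so that their reads cannot be told apart without strand. *Adamts1* shared with *Gpnmb* the value 0 in ARG1- female replicate 2 and ARG1- male replicates 5 and 6. Its other ARG1- libraries had 4.86, 9.27 and 2.16 CPM (replicates 1, 13 and 14), and its ARG1+ libraries 3.25 to 14.3 CPM. *Hmox1*, by contrast, was present in every library, at 45.6 to 62.3 CPM in ARG1+ and 19.2 to 39.9 CPM in ARG1- microglia.

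Closest to *Mitf* were *Plekhm3* (0.286), of endosome and lysosome traffic, *Gm42934* (0.296) and *Hif1a* (0.313). *Ap5z1* (0.315), of an adaptor complex of late endosomes, *Gaa* (0.333) and *Arhgef1* (0.379) were closest to *Tfe3*, *Timm29* (0.459), *Gfpt1* (0.485) and *Tex261* (0.518) to *Tfeb*, and *Cdc7* (0.302), *Sh3bgrl2* (0.372) and *Ppp2r5b* (0.409) to *Tfec*. Among the members, *Gpnmb* lay at 0.652 from *Mitf*, 0.701 from *Tfe3*, 0.721 from *Tfec* and 1.247 from *Tfeb*, and the widest gap, 1.518, was between *Mitf* and *Tfeb*. The genes share the libraries and their populations, so these distances are a description.

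Markers of other cells stayed low beside the microglial sums. Border macrophage, oligodendrocyte lineage and endothelial sums nevertheless lay in every library above 27.5 CPM, the mean of *Gpnmb* in ARG1+ microglia. Their part in the levels of the members was not tested. For the counts below, 15.9% of all genes passed. Border macrophage markers summed to 111 to 237 CPM in ARG1+ and 106 to 141 CPM in ARG1- libraries, almost all of it *Mrc1*, which encodes the CD206 used to gate such cells out, and none of the 5 tested of 7 passed. Monocyte markers summed to 1.89 to 6.7 and 5.05 to 14.1 CPM, with *Chil3* at 0 throughout and *Plac8* lower in ARG1+ microglia. Melanocyte markers summed to 1.03 to 3.04 CPM in ARG1+ and 0.2 to 6.49 CPM in ARG1- libraries. Oligodendrocyte lineage markers, a lineage in which *Gpnmb* has been reported, summed to 37.3 to 90.2 CPM in ARG1+ and 45.8 to 134 CPM in ARG1- libraries, with none of 7 tested passing. Neuronal markers summed to 0.92 to 6.24 and 3.41 to 9.73 CPM, and endothelial markers to 39.6 to 83.6 and 29.8 to 57.5 CPM, with *Cldn5* at 0 throughout. Astrocyte markers summed to 1.78 to 11.4 CPM in ARG1+ and 0.159 to 10.4 CPM in ARG1- libraries.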

How the data were processed

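According to the methods of the study, reads (SMART-Seq v4 complementary DNA, Nextera XT libraries, single-end sequencing) were demultiplexed with bcl2fastq 2.20.0, aligned to GRCm38 with STAR 2.6.1d and counted per gene with featureCounts 1.5.1. The strand setting and annotation release are not given in the sources used here. The authors deposited 1 table of raw counts per Ensembl gene for 12 libraries, with 0 columns left unused here.

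Symbols came from GENCODE M21, which held 55227 of the 55487 identifiers. Genes were kept by edgeR's filterByExpr over the 4 groups of sex and ARG1 status, scaled by TMM and fitted by edgeR 4.0.16 (R 4.3.3) with the quasi-likelihood test, with sex and ARG1 status as terms, or the 4 group means for contrasts of sex. The p-values were adjusted by Benjamini-Hochberg over all genes kept, with a limit of 0.05. CPM is counts over the summed count of the kept genes times the TMM factor, and levels per kb used the union of annotated exons. Log2 CPM for profiles had a prior count of 2. The floor of 3 counts covers counting error only. The labels do not tie libraries to litters, so the p-values measure the spread between these pools. The scripts were tested on simulated data.

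The members and gene lists were chosen with earlier results of these data known. In each list were named the 3 higher and 3 lower genes of smallest p, or the 2 of highest level where none passed, with the 5 profiles closest to *Gpnmb*, 3 to each factor, and the markers. The list of genes described with *Gpnmb* is the exception. There the 3 higher genes of smallest p were counted but not named, and genes of lipid handling were named instead. A few members of the lists are not reported here and were left out of the counts. Further list members were named after their values were seen. Alternatives were other scaling factors, other filters, DESeq2 1.42.0, a term for libraries numbered 13 to 16, ARG1 status without sex, each population fitted alone, counts thinned to the smallest total, and each library left out in turn. A prior count of 0.5 was tried for profiles, and the longest transcript for levels.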

Additional observations from a re-analysis of the deposited data

Results flagged for a closer look

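A search of 108 groups of 6 libraries, made up of the named genes in each population, for a library far from the other 5 found 6, where chance would give about 5.4. *Gpnmb* stood at 51.6 CPM in ARG1+ female replicate 7, against 15.8 to 25.5 CPM in the other ARG1+ libraries. *Atp6v0d2* stood at 5.78 CPM in ARG1+ female replicate 15. *Trem2* stood at 1556 CPM in ARG1+ male replicate 11, *Ap5z1* at 45.3 CPM in ARG1- female replicate 1, *Arhgef1* at 192 CPM in ARG1+ male replicate 12, and *Sh3bgrl2* at 36.2 CPM in ARG1- male replicate 14.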

How the results depend on the processing

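No paired analysis was possible because the groups share no replicate numbers in the labels, which do not tie libraries to litters. The fitted direction of all 5 members between the populations was kept under every alternative run, but *Gpnmb* had no value with at least 10 counts required in every library. With DESeq2, the genes higher in ARG1+ microglia numbered 2141 instead of 1089, and higher genes numbered 165 with CACGTG, 40 with TCACGTGA, 155 with CATGTG, and 23 with TCATGTGA. Higher GPNMB partners, 1 in the report, numbered 3 with DESeq2 and with at least 10 counts required in every library, 2 with DESeq2 size factors, upper-quartile factors or thinned counts, and 0 without a filter or with the term for libraries numbered 13 to 16. Without a filter, lower autophagy genes fell to 1 and lower genes with CACGTG to 81. With a term for libraries numbered 13 to 16, higher osteoclast targets fell to 1 and the *Gpnmb* difference of ARG1 effects between the sexes turned to -0.27, from 0.37. Leaving out 1 library at a time gave 690 to 1116 genes higher (fewest without ARG1+ male replicate 12) and 1048 to 1553 lower (fewest without ARG1+ male replicate 16). It gave 2 to 5 nuclear entry regulators higher (fewest without ARG1+ female replicate 8), 1 to 3 autophagy genes lower, 1 to 3 osteoclast targets higher, 0 to 1 GPNMB partners higher (0 without ARG1- female replicate 2, for example), and 1 to 2 genes described with *Gpnmb* lower. For motifs it gave 53 to 95 genes higher and 77 to 128 lower with CACGTG, 12 to 24 higher with TCACGTGA, 49 to 82 higher and 79 to 115 lower with CATGTG, and 7 to 11 higher with TCATGTGA. Differences between females and males ran from -0.54 to 9.22 for *Gpnmb* in ARG1- microglia (highest without ARG1- male replicate 14), from -0.07 to 0.44 for *Mitf* in ARG1+, and from -1.01 to 0.72 in ARG1- and -0.06 to 0.22 in ARG1+ for *Tfec*. The difference of ARG1 effects between the sexes ran from -8.62 to 1.13 for *Gpnmb* and from -0.64 to 1.08 for *Tfec*. The log2 fold change ran from -1.4 to 0.04 for *Sh3bgrl2* (highest without ARG1- male replicate 14) and from -0.09 to 0.37 for *Ppp2r5b* (lowest without ARG1- male replicate 6). The causes of these shifts were not tested. With the longest transcript as length, levels in ARG1+ microglia were 35 CPM per kb for *Tfe3*, 22.9 for *Tfeb*, 7.42 for *Gpnmb*, 4.68 for *Tfec* and 2.42 for *Mitf*, in the same order. With a prior count of 0.5, 4 of the 5 profiles closest to *Gpnmb* and all 3 of each factor were kept.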
